A study of Sus scrofa domesticus with 4 samples.

Results

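The genes described here encode ligands and receptors of 3 peptide systems that tie energy stores to reproduction: the orexin precursor HCRT with its receptors HCRTR1 and HCRTR2, leptin (LEP) with its receptor LEPR, and the adiponectin receptors ADIPOR1 and ADIPOR2. They were taken as all non-control probes whose RefSeq transcript belongs to one of these genes, which gave 11 probes of 7 genes among 43603 probes on the array, of which 6700 had a gene name (3029 genes). HCRT, HCRTR1 and LEPR had 1 probe each and HCRTR2, LEP, ADIPOR1 and ADIPOR2 had 2 each.

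Orexin A (OXA) and orexin B are cut from a single precursor and act on receptors coupled to G proteins, mainly Gq, which releases calcium from internal stores. Leptin, made chiefly by fat cells, signals through a cytokine receptor that recruits JAK2 and STAT3, while adiponectin, another product of fat cells, acts through a pair of seven-pass membrane proteins that activate AMPK and PPAR-alpha pathways. The myometrium is the smooth muscle wall of the uterus, and all 3 systems have been studied in the uterus of the pig.

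RNA of OXA-treated myometrial explants was compared with RNA of non-treated explants on 4 Agilent 2-colour arrays. Treated explants received OXA for 24 h after 2 h of preincubation, at 10 nM per the sample labels and at 10 µM per the design text, a difference the labels do not settle. Non-treated explants were kept in the same way without OXA. The tissue came from the middle part of the uterine horns of 4 mature gilts, Large White x Polish Landrace, aged 7 to 8 months and on days 15 to 16 of gestation, so both RNAs are from pregnant animals. Explants are pieces of whole tissue, so cells other than muscle can be present. Cultures were run in duplicates in 4 experiments, and the labels do not say outright that both RNAs of an array came from the same gilt. Per the sample labels, OXA-treated RNA carried Cy5 on arrays 1 and 3 but Cy3 on arrays 2 and 4, while the labelling protocol words it as Cy5 throughout. The labels were followed here.

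The scanner software marked 39.8% to 49.7% of probes per array as well above background for OXA-treated RNA and 41.5% to 61.0% for non-treated RNA. Array 2 stood apart from each of the others. Across the 19504 probes tested, its log2 ratios had a Pearson correlation of -0.59 with array 1 and of -0.30 with array 3. With array 4, which has the same dye orientation, it was -0.38, while arrays 1 and 4 had 0.62. Array 3 had 0.23 with array 1 and -0.06 with array 4. Because arrays 2 and 4 oppose each other with the same dyes, the direction of array 2 was not taken as settled, and estimates with its sign turned are given beside those as labelled. In these the dye term is turned as well, unless said otherwise, which leaves array 4 as the lone array of its orientation. Array 4 then weighs more in the estimate than each other array, so the estimates shift by more than the sign of array 2. With the dye term kept as labelled, turning array 2 gave 0.55 for HCRT instead of 0.41. For JAK2 it gave -0.60 instead of -0.85, and for SIRT1 -0.45 instead of -0.67. The median estimate over all 1985 genes moved to 0.25 with array 2 and its dye term turned, against 0.08 as labelled. Smooth muscle markers were present, with all 7 of the 12 listed genes that were on the array tested.

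Detection came first. A probe counts as detected in a channel if the scanner software marks its signal as well above background there. HCRT, ADIPOR1 and ADIPOR2 were detected with every probe in all 8 channels, and LEP with 1 of its 2 probes, which makes 6 of 11 probes, or 54.5%. The same was true of 35.1% of all probes and of 58.5% of the named ones. On array 1 the marks of ADIPOR2 probe A_72_P302919 fell on a spot about as bright as its surroundings, described below. HCRTR1, HCRTR2 and LEPR were detected in none of the 8 channels, with all 4 of their probes (36.4% of the 11, against 37.8% of all probes). Thus the ligand transcripts and the adiponectin receptors gave a signal in this tissue, and the orexin and leptin receptor probes gave only a bound.

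**Figure D1:**
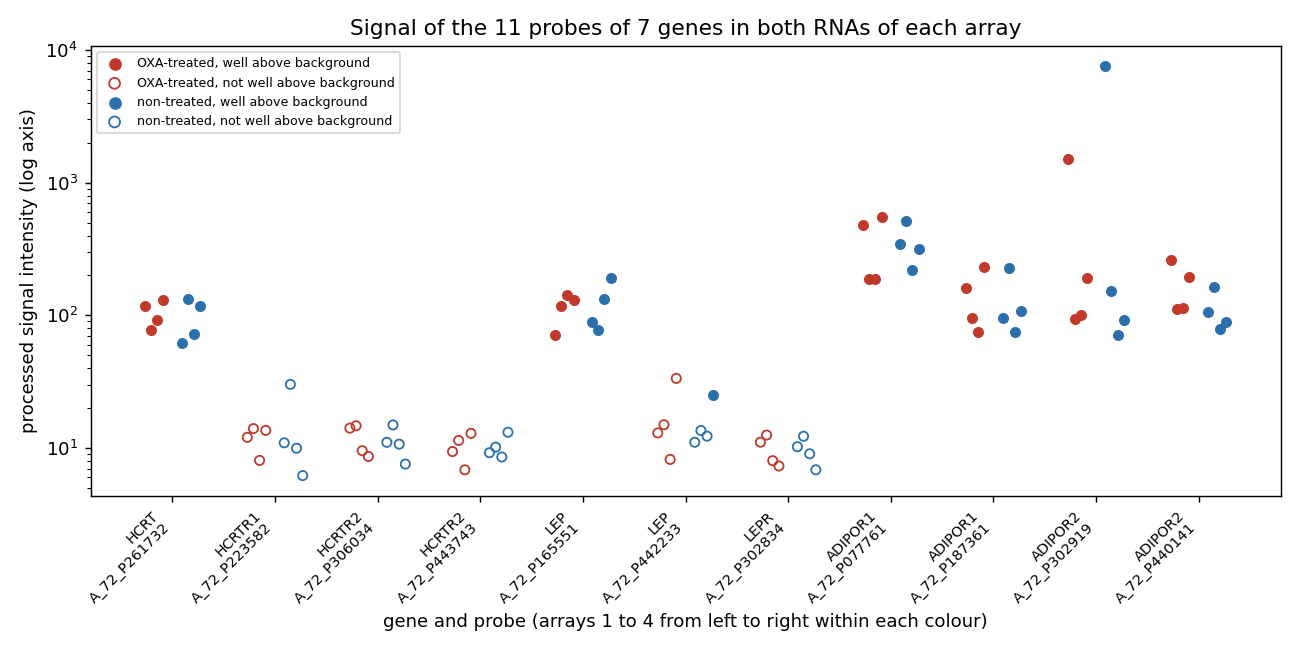
Processed signal intensity (log axis) of the 11 probes, with OXA-treated RNA in red left of non-treated RNA in blue, 1 point per array and arrays 1 to 4 from left to right. Filled points are well above background. The HCRTR1, HCRTR2 and LEPR points are all open and lie between 6.20 and 30.2, and the non-treated point of ADIPOR2 probe A_72_P302919 on array 1 stands at 7532.

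HCRT encodes prepro-orexin, the source of both orexins. Its probe A_72_P261732 had signals of 117, 77.5, 91.5 and 130.4 in OXA-treated RNA on arrays 1 to 4, against 61.9, 134, 72.6 and 119 in non-treated RNA. The ranges overlap, and both RNAs stayed close to the detection limit, at 1.48 to 6.90 times the lowest signal that the software marked as above background in that channel. Its log2 ratios of OXA-treated over non-treated RNA were 0.92, -0.79, 0.33 and 0.14, higher with OXA on 3 arrays and lower on array 2. They averaged 0.15 ± 0.71 (SD, n = 4). Turning array 2 gave 0.41 in the fit. The transcript that makes the added peptide thus showed no difference beyond the spread of the arrays, with a 95% interval of the fold from 0.67 to 1.83.

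HCRTR1 encodes the orexin receptor that prefers orexin A, and HCRTR2 the one that binds both orexins. The HCRTR1 probe A_72_P223582 had signals of 12.0, 14.0, 8.07 and 13.6 in OXA-treated RNA, against 10.9, 30.2, 9.97 and 6.20 in non-treated RNA. None of them was well above background. For HCRTR2, probe A_72_P306034 had 8.64 to 14.7 in OXA-treated and 7.57 to 14.9 in non-treated RNA, and probe A_72_P443743 had 6.85 to 12.9 in OXA-treated and 8.56 to 13.2 in non-treated RNA. Together with LEPR, these 4 probes lay at 0.16 to 0.77 times the lowest signal marked as above background, in 32 channel values. No ratio is given for them, since both RNAs were below the mark, and the software's own error of the log2 ratio of a single spot was 1.10 to 2.06. Signals of this size limit what the array can show, and they do not show that the receptor transcripts are absent.

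LEP, the leptin gene, was split between its probes. Probe A_72_P165551 had signals of 71.5, 117, 142 and 129.8 in OXA-treated RNA, against 89.1, 77.7, 132 and 192 in non-treated RNA, with overlapping ranges. Its log2 ratios were -0.32, 0.59, 0.10 and -0.57 and averaged -0.05 ± 0.51 (SD, n = 4), and the fit with array 2 turned gave -0.42. The other probe, A_72_P442233, was above background only in the non-treated channel of array 4, at 25.2, where the OXA signal of 33.5 did not reach the mark. Detection limits differed between channels of that array: the lowest signals marked as above background were 44.8 in OXA-treated and 17.2 in non-treated RNA. LEP detection thus rests on 1 of 2 probes of the same transcript.

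LEPR encodes the leptin receptor. Its probe A_72_P302834 had 11.1, 12.5, 8.03 and 7.32 in OXA-treated RNA, against 10.2, 12.3, 9.05 and 6.85 in non-treated RNA, all below the mark. LEPROT, the next coding gene to LEPR in the RefSeq annotation of the pig (Sscrofa11.1), encodes a small membrane protein known in other mammals to reduce leptin receptor at the cell surface. All 3 LEPROT probes were tested, and A_72_P539363, the brightest, had 4662, 2769, 5229 and 6638 in OXA-treated RNA, against 6774, 2745, 3491 and 7827 in non-treated RNA. LEPROT was thus measured where LEPR was not. The log2 ratios of this probe averaged -0.05 ± 0.48 (SD, n = 4), with a turned estimate of -0.11.

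ADIPOR1 encodes the adiponectin receptor best known from skeletal muscle. Probe A_72_P077761 had signals of 477, 189, 189 and 551 in OXA-treated RNA, against 343, 516, 219 and 315 in non-treated RNA. The second probe, A_72_P187361, had 160.1, 94.9, 74.7 and 231 in OXA-treated RNA, against 95.4, 229, 74.8 and 108 in non-treated RNA. Both probes were higher with OXA on arrays 1 and 4 and lower on array 2, and the group ranges overlap. Their log2 ratios were 0.47, -1.45, -0.21 and 0.80 for A_72_P077761 and 0.75, -1.27, -0.00 and 1.10 for A_72_P187361. The means were -0.09 ± 1.00 and 0.14 ± 1.05 (SD, n = 4 each). On each array the probes differed by only 0.18 to 0.29, so the spread of ADIPOR1 lay between arrays and not between probes. Over all genes with at least 2 tested probes, the median difference between the 2 brightest was 0.14 to 0.25 by array. With array 2 turned the fit gave 0.69 and 0.88.

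ADIPOR2 encodes the adiponectin receptor best known from liver. Probe A_72_P440141 had signals of 261, 112, 113 and 196 in OXA-treated RNA, against 106, 163, 78.7 and 89.2 in non-treated RNA. Its log2 ratios were 1.30, -0.54, 0.52 and 1.13, and averaged 0.60 ± 0.83 (SD, n = 4). It was higher with OXA on 3 of 4 arrays and lower on array 2. Its fold was 1.52, with a 95% interval from 0.82 to 2.81, the largest estimate among the 6 tested probes. Without array 2 the fit gave 1.02, and with array 2 turned it gave 0.96, with an adjusted p from limma of 0.105.

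**Figure D2:**
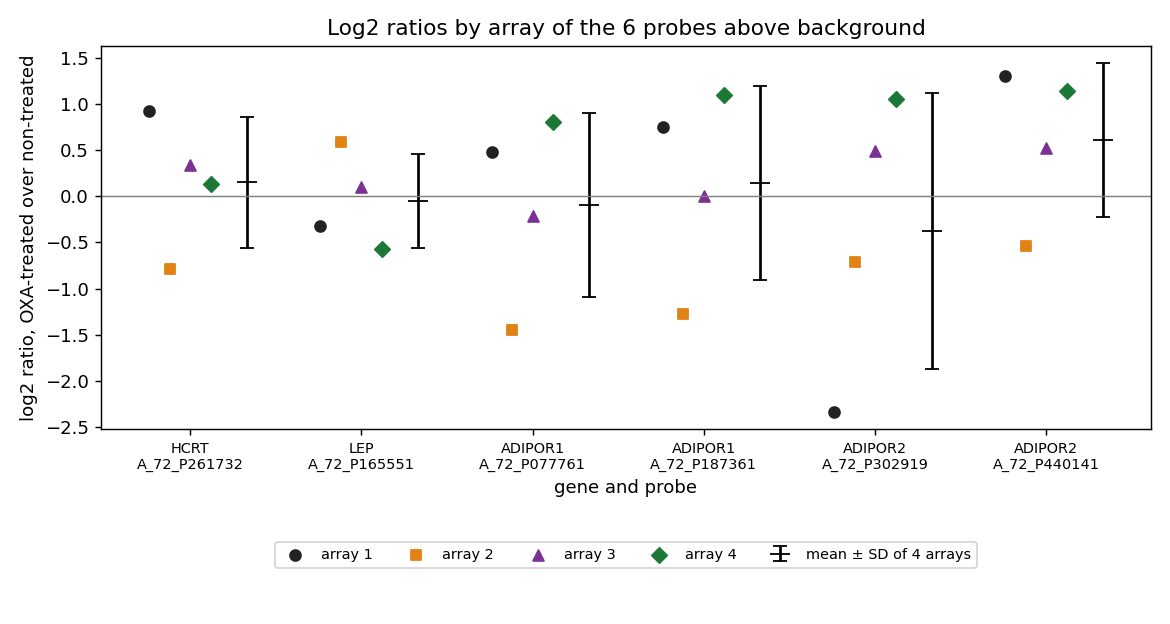
Log2 ratio of OXA-treated over non-treated RNA for the 6 probes above background, 1 point per array, with the mean and SD of the 4 arrays as a black bar. Array 2 lies below 0 for HCRT and both adiponectin receptor genes and above 0 for LEP, and the array 1 value of ADIPOR2 probe A_72_P302919 lies at -2.33.

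The second ADIPOR2 probe parted from the first on array 1. Probe A_72_P302919 had signals of 1498, 93.8, 100.1 and 192 in OXA-treated RNA, against 7532, 154, 71.1 and 92.8 in non-treated RNA. Its log2 ratios were -2.33, -0.71, 0.49 and 1.05. On arrays 2 to 4 it stayed within 0.03 to 0.17 of A_72_P440141, and on array 1 it lay 3.63 away, in the opposite direction. No other of the 982 genes with at least 2 tested probes on array 1 had its 2 brightest probes so far apart.

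On array 1 the pixels of this spot were about as bright as the area around it. The spot had a median intensity of 2400 in the OXA channel and 11520 in the non-treated channel, and the background measured around it was 2361 in the OXA and 12281 in the non-treated channel. Median local backgrounds over the whole array were 31 in the OXA and 25 in the non-treated channel. On arrays 2 to 4 the same spot had a local background of 22 to 42. The bright area joined 33 non-control spots on array 1, with local backgrounds of 287 to 12994 in the non-treated channel. It held 19 tested probes, 3 of them named (ADIPOR2, FKBP1A and STAT3). All 19 had negative log2 ratios on array 1, between -2.46 and -1.09 with a median of -2.31, while their medians on arrays 2 to 4 were -0.26, 0.05 and 0.09. No outlier mark of the software applied to the ADIPOR2 spot, so its deposited value was kept in the main fit.

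With this value the probe averaged -0.38 ± 1.50 (SD, n = 4), and without it 0.28 ± 0.90 (SD, n = 3). The fit gave 0.33 without it, with a 95% interval from -0.88 to 1.54. Subtracting the local background (normexp, offset 50) moved the array 1 log2 ratio to 0.92 and the estimate to 0.30. The spot was barely above its background with OXA (2400 against 2361) and below it in non-treated RNA (11520 against 12281). That array 1 ratio therefore depends on the offset and is no measured ratio of the gene, and at offset 16 the estimate was 0.47. With this subtraction both ADIPOR2 probes had positive estimates, and neither was called. The sign of this probe was not stable in other respects either. With the array 1 spot kept, the estimate was 0.06 without array 2 and 0.34 with array 2 turned (-0.02 with the dye term as labelled).

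**Figure D3:**
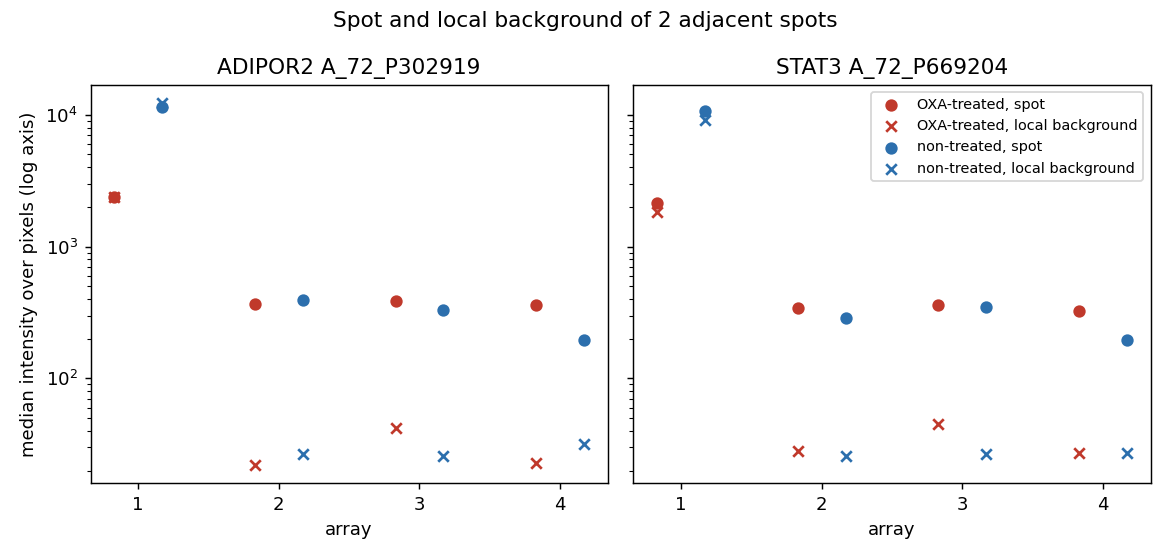
Median pixel intensity (log axis) of the spot (circles) and of its local background (crosses) on arrays 1 to 4, with OXA-treated RNA in red left of non-treated RNA in blue, for ADIPOR2 probe A_72_P302919 and the adjacent STAT3 probe A_72_P669204. On array 1 the background reaches the level of the spot in both RNAs, at 2361 against 2400 and 12281 against 11520 for ADIPOR2.

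None of the 6 tested probes was called. limma, fitted across all 19504 tested probes with a dye term, gave an adjusted p of 0.998 for each of them. At the threshold of 0.05 it called 0 of the 6 (0% of all tested probes), and at an unadjusted p under 0.05 also 0 of the 6 (1.22% of all tested probes, or 237). That 1.22% is less than p-values without any difference would give at this threshold. As labelled the p-values thus ran high, for a cause that was not tested, and 0 of the 6 is a weak negative. Exact sign-flip permutation tests over the 4 arrays gave two-sided p-values between 0.375 and 1, where 4 arrays allow no p below 0.125. None of the 6 probes was positive on all 4 arrays (3.94% of tested probes) or negative on all 4 (3.75%). With array 2 turned, 2 of the 6, HCRT and ADIPOR2 probe A_72_P440141, were positive on all 4 (17.6% of tested probes), and none was negative on all 4 (17.8%). The 95% intervals of the fold ran from 0.67 to 1.83 for HCRT, from 0.58 to 1.62 for LEP, from 0.46 to 1.90 and from 0.53 to 2.30 for ADIPOR1 and from 0.31 to 1.91 and from 0.82 to 2.81 for ADIPOR2, so changes inside them could not be told from none. Leaving out array 2 called 1108 probes and leaving out arrays 1, 3 and 4 called 1, 5 and 2, and none of these counts included HCRT, LEP, ADIPOR1 or ADIPOR2. Those leave-out counts rest on 1 spread common to all probes and not on that of each probe. With array 2 turned, limma called 0 of all tested probes. Then 3 of the 6 had an unadjusted p under 0.05 with the dye term as labelled (26.2% of all tested probes), and 2 of the 6 with the dye term turned too (27%), an alternative chosen after seeing the data.

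By sign, 4 of the 6 were positive on arrays 1 and 4 and negative on array 2 (31% of all tested probes had that pattern), and LEP had the opposite signs (29.6%). Marker lists of other cell types moved between arrays too. The median log2 ratio of 8 macrophage genes was 0.72, -0.61, 1.98 and 0.83 on arrays 1 to 4, and that of 5 uterine epithelium genes was -1.37, 2.06, -1.18 and 1.87. Read as Cy5 over Cy3, the epithelial medians were -1.37, -2.06, -1.18 and -1.87, of 1 sign on all 4 arrays, with arrays 2 and 4 on the same side. Summed macrophage signals ran from 1220 to 9666 in OXA-treated and from 1258 to 5598 in non-treated RNA, and summed epithelial signals from 138 to 12177 in OXA-treated and from 345 to 2873 in non-treated RNA. Their part in the values above was not tested, and in bulk tissue fewer cells of a type and less RNA per cell cannot be told apart.

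Fat cells are the main source of leptin and adiponectin, so the adipocyte list stands beside LEP. Of its 10 genes, all on the array, 4 were tested, with a median log2 ratio of 0.26, -0.49, -0.08 and 0.51 on arrays 1 to 4. Their summed signals were 2868 to 4090 in OXA-treated and 1841 to 6498 in non-treated RNA. By the best probe of each gene, LIPE, SCD and GPD1 were detected in all 8 channels, PNPLA2 in 7, FABP4 in 4 and LPL and DGAT2 in 2 each. PLIN1 and CIDEC, which coat the fat droplet, were detected in 0 of 8 channels. ADIPOQ, the adiponectin gene, was above background only on array 4 and with 1 of its 2 probes, at 110.2 in OXA-treated and 26.3 in non-treated RNA. On that array LEP probe A_72_P165551 had a log2 ratio of -0.57. The other LEP probe, A_72_P442233, had 33.5 in OXA-treated RNA, below the mark, and 25.2 in non-treated RNA. The part of fat cells in the LEP values was not tested.

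Downstream genes of the orexin receptors were read from a list of G proteins, phospholipases, calcium channels and kinases. Of 31 genes, 11 were on the array and 10 were tested, and limma called 0 in either direction (0% of genes), with 0 of the 10 at an unadjusted p under 0.05 either (1.31% of genes). Estimates were positive for 5 and negative for 5, with a median of -0.03, against a median of 0.08 and 61.2% positive over all 1985 genes. GNA11, a Gq-class alpha subunit, averaged 0.23 ± 0.74 and GNAI3, an inhibitory alpha subunit, averaged -0.49 ± 0.69 (SD, n = 4 each). MAP2K1, the kinase above ERK, averaged 0.39 ± 0.36, and its 5 probes had estimates of 0.17 to 0.47. RGS2, which shuts off Gq, averaged -0.19 ± 0.53. None passed the test, and the brightest tested probe stands for each gene. With array 2 turned the estimates were 0.69 for GNA11, -0.74 for GNAI3, 0.42 for MAP2K1 and -0.49 for RGS2, and 6 of the 10 were positive, against 70.9% of all genes.

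For leptin, 13 of 24 listed genes were on the array and 11 were tested, with 0 called. Estimates had a median of 0.04 and were positive for 6 and negative for 5, against 61.2% positive over all genes. JAK2, the kinase bound to the leptin receptor, averaged -0.33 ± 0.79 and JAK1 averaged 0.36 ± 0.29 (SD, n = 4 each). The 5 JAK1 probes had estimates of -0.10 to 0.36. STAT5A, a further transcription factor of the pathway, averaged 0.35 ± 0.56. STAT3, the main leptin-responsive transcription factor, had log2 ratios of -2.33, -0.49, 0.04 and 0.39 with its brightest probe, A_72_P669204. That probe lies next to the ADIPOR2 spot A_72_P302919 on the array, in the same bright area of array 1, with a local background of 1832 in the OXA and 9053 in the non-treated channel. Its estimate was -0.60, and without the array 1 value it was -0.003, while the 3 other STAT3 probes had estimates of 0.19 to 0.27 and array 1 log2 ratios of 0.01 to 1.29. Turned, the estimates were -0.85 for JAK2, 0.12 for JAK1, 0.56 for STAT5A and -0.10 for STAT3, with its array 1 value kept. Of the 11, 7 were positive, against 70.9% of all genes. SOCS3, the feedback inhibitor of leptin signalling, was detected in 1 of 8 channels and was not tested.

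Among adiponectin genes, 15 of 20 were on the array and 11 were tested, with 0 called. Estimates had a median of 0.02 and were positive for 7 and negative for 4, against 61.2% positive over all genes. PPARG, the fat cell transcription factor, had log2 ratios of 1.17, -0.07, 0.28 and 1.2 and averaged 0.65 ± 0.64 (SD, n = 4), and its 3 probes had estimates of 0.50 to 0.65. PRKAB2, a regulatory subunit of AMPK, had 0.37, 0.26, 0.72 and 0.02 and averaged 0.34 ± 0.29. NAMPT, which makes a precursor of NAD and is also secreted as visfatin, had -0.54, -0.08, -0.02 and -0.87 and averaged -0.38 ± 0.40. SIRT1, an NAD-dependent deacetylase, averaged -0.36 ± 0.54. Positive on all 4 arrays were 2 of the 11, PRKAB2 and the receptor adaptor APPL1, which was named after its values were seen (5.69% of genes), and negative on all 4 was NAMPT (2.92%). The 2 APPL1 probes had estimates of -0.20 and 0.14. Turning array 2 reverses its sign, so it ends a pattern of 1 sign on all 4 arrays in any gene, PRKAB2, APPL1 and NAMPT included. PPARG and PRKAG1, a further AMPK subunit also named after its values were seen, were then positive on all 4 (23.8% of genes) and SIRT1 negative on all 4 (6.85%). The turned estimates were 0.86 for PPARG, 0.15 for PRKAB2, -0.52 for NAMPT and -0.67 for SIRT1. PPARA, the other partner of the adiponectin receptors, was detected in 0 of 8 channels.

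Of 22 other appetite peptides, adipokines and their receptors, 13 were on the array and 4 were tested. None was called, and 2 estimates were positive and 2 negative (61.2% positive over all genes), with a median of -0.02. RARRES2, which encodes chemerin, had log2 ratios of -0.04, -0.49, -0.19 and -0.39 and averaged -0.28 ± 0.20 (SD, n = 4). It was negative on all 4 arrays as labelled (2.92% of genes). With array 2 turned, which ends any such pattern, its estimate was -0.15. POMC, the melanocortin precursor, averaged 0.38 ± 0.71. NPY1R, a receptor of neuropeptide Y, averaged 0.09 ± 0.47, and IGF1R, the receptor of insulin-like growth factor 1, averaged -0.13 ± 0.86. Their turned estimates were 0.45 for POMC, 0.43 for NPY1R and 0.51 for IGF1R. RETN, the resistin gene, was detected in 0 of 8 channels.

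**Figure D4:**
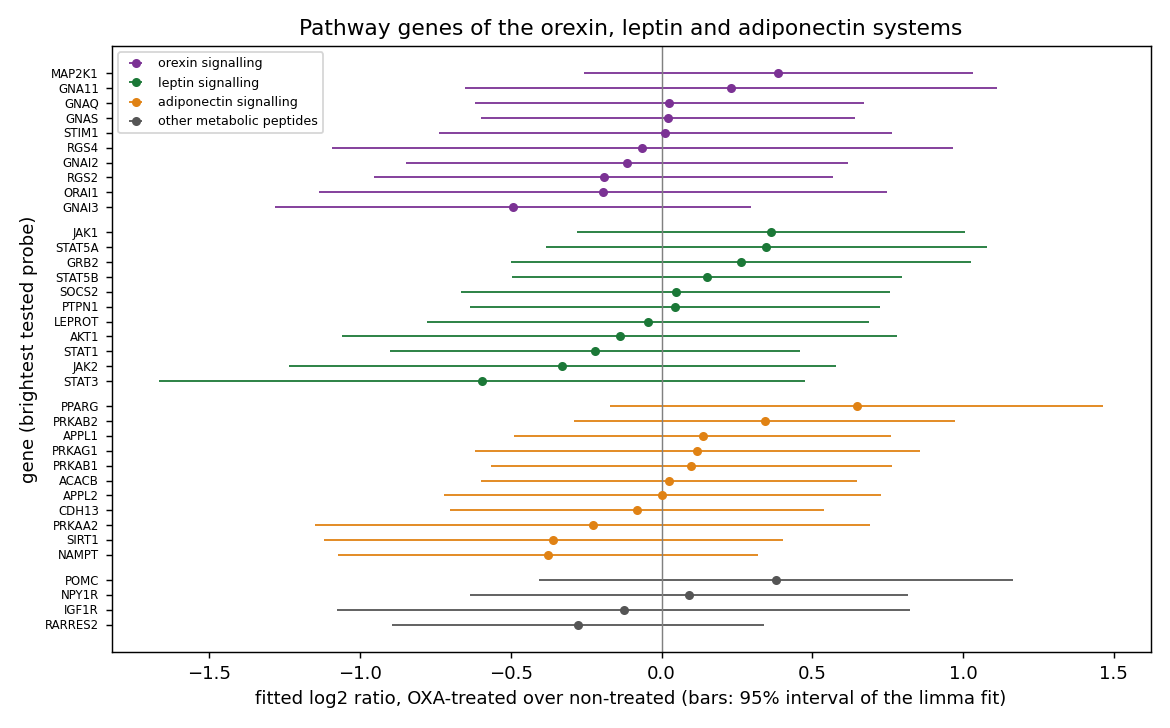
Fitted log2 ratio of OXA-treated over non-treated RNA for the tested genes of the 4 lists, 1 point per gene from its brightest probe, with the 95% interval of the limma fit. Array 2 is taken as labelled. Every interval spans 0, and the points run from -0.60 for STAT3 to 0.65 for PPARG. The STAT3 probe lies in the bright area of array 1, and without that array 1 value its estimate was -0.003. Turning array 2 gives -0.10 for STAT3, with its array 1 value kept, and -0.85 for JAK2.

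Genes with the most similar pattern were found by the root mean square difference of the 4 log2 ratios, over 1984 other genes with the brightest tested probe each. For HCRT these were RPS3 (0.081), LTA (0.117) and SSTR3 (0.126), against a median difference of 0.630 over all genes. LEP was nearest to BBS4 (0.070), PGRMC2 (0.083) and ESD (0.090), with a median of 0.777. ADIPOR1 was nearest to SLC35E4 (0.106), XIRP1 (0.155) and CIDEA (0.159), with a median of 0.794.

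ADIPOR2, by its brightest probe A_72_P302919, was nearest to STAT3 (0.412), MGP (0.543) and CCL4 (0.546), with a median of 1.48. The spot next to it thus ranked first, through the array 1 values of -2.33 that both share. The other ADIPOR2 probe, A_72_P440141, chosen for this after its values were seen, was instead nearest to GMPPB (0.166), TUSC5 (0.186) and SARDH (0.193), with a median of 0.826. Turning array 2 leaves these differences as they are. The rankings rest on 4 arrays, and 31% of tested probes shared the signs of HCRT on arrays 1, 2 and 4.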

How the data were processed

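Agilent 2-colour arrays of 4 pairs of OXA-treated and non-treated myometrium RNA were used. Deposited scanner files give intensity of spots and local background, flags, LogRatio as log10 of Cy5 over Cy3 with its error, and a p-value of each spot, which was not used, per the file headers, which name Agilent Feature Extraction 10.7.3.1. The deposited value table holds log2 ratios. Set against the scanner's processed signals, 100% of values of single-spot probes lay within 0.001 of log2 OXA-treated over non-treated, with column medians of 0.10, 0.10, -0.19 and 0.07 on arrays 1 to 4. What else the authors did to make the table is not given in the sources used here.

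Ratios were taken from that table. Values with an outlier flag were left out (64 among tested probes). A probe entered the test with the above-background mark on 3 or more of the 4 arrays in either RNA (19504 probes, of which 4487 had names, from 1985 genes). Names came from RefSeq accessions matched to a table of assembly Sscrofa11.1. limma 3.58.1 (R 4.3.3) fitted OXA and a probe-specific dye term, with 2 residual and 4.13 prior degrees of freedom, with Benjamini-Hochberg adjustment over every tested probe. The fit was also run on simulated data with independent noise on each array. Log2 ratios of the real arrays were correlated, so that run does not show how the fit performs on them. The number of arrays limits the precision, and p-values measure the spread between these samples. The genes, lists and tests were chosen with earlier results of these data known. Named from each pathway list were the 4 tested genes with the smallest p, and for likeness the 3 nearest genes. Alternatives covered the source and background correction of the ratios, centring, filters, dye term, array weights, separate channels, direction and each array left out. Leaving out spots with a local background over 10 times the array's median, and turning array 2 together with its dye term, were chosen after seeing the data. Sequences were not used here.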

Additional observations from a re-analysis of the deposited data

Results flagged for a closer look

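Among 45 sets of 4 values, 1 (2.22%) held a value far from the others, where chance gives about 5%. It was the non-treated signal of ADIPOR2 probe A_72_P302919 on array 1, at 12.9 on the log2 scale (7532 on the linear scale), while the other 3 arrays lay between 6.15 and 7.26. This is the spot in the area of high local background described above.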

How the results depend on the processing

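No probe of HCRT, LEP, ADIPOR1 or ADIPOR2 was called under any alternative run. Over all tested probes the count of calls was 1 to 1108 with 1 array left out, 237 at an unadjusted p under 0.05 with at least 1.2-fold, and 0 in every other alternative. Of 108 alternative values of the 6 probes, 87 kept the sign and 21 turned it, at adjusted p-values between 0.0787 and 1.00 over all 6. The sign of ADIPOR2 probe A_72_P440141 held in all 18. For A_72_P302919 the estimate was 0.30 with normexp at offset 50 and in the separate-channel analysis, 0.47 at offset 16, 0.34 with array 2 turned together with its dye term, 0.33 without high local background spots, and -1.08 to 0.33 with 1 array left out. For ADIPOR1 probe A_72_P077761 it was 0.23 with OXA in Cy5 on all arrays, 0.63 with array 2 turned and 0.69 with its dye term turned too, and -0.66 to 0.47 with 1 array left out. A_72_P187361 ran from -0.45 to 0.73 with 1 array left out, and HCRT from -0.078 to 0.38. LEP was 0.02 with normexp at either offset (0.0192 and 0.0206), without background subtraction (0.0222) and with separate channels, and -0.34 to 0.24 with 1 array left out.

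Of 286 alternative values of the 16 named pathway genes, 271 kept the sign and 15 turned it. Under OXA in Cy5 throughout, estimates were 0.32 for GNAI3, -0.17 for JAK1, 0.066 for JAK2, 0.094 for NAMPT, 0.11 for SIRT1, 0.16 for RARRES2 and 0.10 for IGF1R. IGF1R was also 0.43 with array 2 turned, 0.51 with its dye term turned too, and -0.57 to 0.32 with 1 array left out. With 1 array left out GNA11 ran from -0.17 to 0.63, RGS2 from -0.46 to 0.077, JAK2 from -0.80 to 0.14 and NPY1R from -0.19 to 0.37. Apart from the high local background, the causes were not tested. With the mean of all tested probes of a gene, list medians were -0.05, 0.03, 0.00 and -0.04 for orexin, leptin, adiponectin and other peptides. The log2 ratios already pair both RNAs of an array, and the arrays form 1 group, so no further pairing was made. Whether they also pair RNAs of the same gilt is not said outright by the labels. Leaving out 1 array leaves another as the lone array of its orientation. The p-values and counts of calls of these fits rest on 1 spread common to all probes, so they do not measure the spread of each probe.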
